A study of Mus musculus with 18 samples.

Results

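The small leucine-rich proteoglycans are secreted matrix proteins built from a core of leucine-rich repeats, to which most members attach chondroitin, dermatan or keratan sulfate chains. The family genes studied were taken by symbol from the expression table, giving 8 of its 21959 genes. They were biglycan (Bgn), decorin (Dcn) and asporin (Aspn) of class I, fibromodulin (Fmod), PRELP (Prelp) and lumican (Lum) of class II, osteoglycin (Ogn) of class III and podocan (Podn) of class V.

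In the artery wall these proteins sit on collagen and elastic fibres, set the width and spacing of collagen fibrils, and bind growth factors of the TGF-beta family. Several are made by vascular smooth muscle cells and adventitial fibroblasts. Released biglycan and decorin can also engage receptors at the cell surface.

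RNA was sequenced from MOVAS cells, an immortalised smooth muscle line from mouse aorta, in 6 groups of 3 libraries. The groups were doxorubicin with isoliensinine (D_I), doxorubicin alone (Dox), hydrogen peroxide with isoliensinine (H_I), hydrogen peroxide alone (H2O2), isoliensinine alone (B_I) and untreated cells (Blank). Doxorubicin is a DNA-damaging drug, hydrogen peroxide an oxidant, and isoliensinine a plant alkaloid. The labels of D_I, H_I and B_I name isoliensinine only, and their reading as the isoliensinine arms of the other 3 groups rests on the parallel sample titles. The sources used here give no doses or times. All libraries come from 1 cell line, and nothing says that replicates are separate cultures, so p-values measure the spread between these libraries, which may be technical.

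Libraries held 12859609 to 23284077 counts. Of the smooth muscle markers, Acta2 averaged 1.9e+03 CPM (a gene's count scaled to its library's total), with Smtn at 128, Myh11 at 8.05 and Cnn1 at 5.25 CPM, while Tagln at 0.357 and Myocd at 0.194 CPM were near 0. Of 12 listed fibroblast markers the highest were Pdgfrb, Fbln1 and Serpinf1, which averaged 276, 115 and 68.5 CPM. Pdgfra averaged 20.6 and Ly6a 6.36 CPM. Thy1, Pi16, Col14a1 and Dpt averaged 2.13, 1.67, 1.6 and 1.21 CPM, and Cd34, Mfap5 and Tcf21 0.819, 0.69 and 0.294 CPM. Blank 4 and B_I 3 stood apart from their replicates, with summed smooth muscle markers of 3584 CPM in B_I 3, against 1334 and 1344 CPM in the other B_I libraries, and 4067 CPM in Blank 4, against 1012 and 1117 CPM in the other Blank libraries. H_I 1 had the highest sum of colon and liver transcripts, at 988 CPM against 73.8 to 361 CPM in the other 17 libraries. Because these are bulk libraries, fewer cells of a type and less RNA per cell cannot be told apart.

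The 8 genes spanned a wide range of abundance in these cells. Levels are the authors' FPKM, counts divided by transcript length and by the library's total, which allow comparison between genes of different length. Averaged over the 18 libraries, Bgn stood at 465 FPKM, rank 97 of the 21959 genes. Fmod followed at 99.0 FPKM, rank 592, and Prelp at 7.24 FPKM, rank 4787. The other 5 averaged under 1 FPKM, with Dcn at 0.924, Ogn at 0.719, Podn at 0.712, Aspn at 0.195 and Lum at 0.158 FPKM. Decorin, which limits the lateral fusion of collagen fibrils and is a common arterial proteoglycan, was therefore scarce in MOVAS cells, while its close relative biglycan was among the 100 most abundant transcripts. The order among Dcn, Ogn and Podn changed between groups, with Dcn the highest of the 3 in Dox and the lowest in Blank.

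Most of these genes lie in pairs or clusters with other family members, an arrangement known from mammalian genomes. In the deposited coordinates, whose build is not named, Fmod (ENSMUSG00000041559) runs from 133964992 to 133976015 on the plus strand of chromosome 1, and Prelp (ENSMUSG00000041577) from 133838042 to 133849152 on the minus strand. The gap of 115.8 kb between them holds 0 other listed genes. Dcn (ENSMUSG00000019929; chromosome 10, 97315471 to 97354005, plus strand) and Lum (ENSMUSG00000036446; 97400990 to 97408565, plus strand) are 47.0 kb apart with 0 listed genes between them. Aspn (ENSMUSG00000021388; chromosome 13, 49697919 to 49721041, plus strand) and Ogn (ENSMUSG00000021390; 49761522 to 49777977, plus strand) are 40.5 kb apart with Omd, the gene of osteomodulin, between them. Bgn (ENSMUSG00000031375; chromosome X, 72527208 to 72539539, plus strand) and Podn (ENSMUSG00000028600; chromosome 4, 107871988 to 107953642, minus strand) lie apart from the other 6.

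The 250 bases before the start site of the 3 abundant genes are shown because their transcripts moved by different amounts in the same libraries, Fmod and Prelp from neighbouring loci. The sequences are RefSeq's, on GRCm38.p6, and 6 of the 8 genes had an entry. They run 5′ to 3′ on the gene's strand, with motif matches in capitals. They lie at chr1:134037004-134037253 (plus strand) for Fmod, chrX:73483351-73483600 (plus strand) for Bgn and chr1:133921402-133921651 (minus strand) for Prelp.
Fmod: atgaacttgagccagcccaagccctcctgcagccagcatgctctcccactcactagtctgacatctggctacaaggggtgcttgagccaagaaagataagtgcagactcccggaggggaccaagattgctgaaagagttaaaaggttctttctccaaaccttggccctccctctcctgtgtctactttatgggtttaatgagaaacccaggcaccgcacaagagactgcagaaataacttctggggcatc
Bgn: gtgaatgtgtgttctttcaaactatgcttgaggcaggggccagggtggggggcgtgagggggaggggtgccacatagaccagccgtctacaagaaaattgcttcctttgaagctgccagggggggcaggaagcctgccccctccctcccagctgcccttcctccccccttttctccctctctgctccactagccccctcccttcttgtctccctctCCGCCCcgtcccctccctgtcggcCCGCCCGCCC
Prelp: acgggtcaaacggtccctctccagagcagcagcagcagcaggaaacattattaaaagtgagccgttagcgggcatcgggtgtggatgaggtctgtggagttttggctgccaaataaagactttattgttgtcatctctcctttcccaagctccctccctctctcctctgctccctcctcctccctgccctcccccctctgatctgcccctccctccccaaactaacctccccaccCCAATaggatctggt
The 5 motifs below were searched on both strands: the TATA box (TATAAA), the CCAAT box (CCAAT), the GC box (GGGCGG), the AP-1 site (TGANTCA) and the SMAD element (CAGACA). Of 32851 mouse promoter windows of the same length, 12.4% held the first, 33.8% the second, 32.7% the third, 6.75% the fourth and 17.1% the fifth. The Bgn window held 3 GC boxes on the opposite strand, at -34 to -29, -10 to -5 and -6 to -1 from the start site, the last pair overlapping. The Prelp window held 1 CCAAT box at -15 to -11, and the Fmod window held none of the 5 letter strings. G and C made up 64.4% of the Bgn window, 51.2% of the Fmod window and 55.6% of the Prelp window, against a median of 52.4% over all windows. A match describes letters only, and the lack of one says nothing about any factor.

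Fmod was the family gene that moved most. Fibromodulin binds type I collagen, guides fibril assembly and steers cross-linking of collagen. Fmod stood at 21.8, 25.4 and 24.4 FPKM in the Dox libraries, against 179, 188 and 240.2 FPKM in the Blank libraries. It stood at 89.2, 89.0 and 62.1 FPKM in the H2O2 libraries. Every Dox library was below every H2O2 library, and every H2O2 library below every Blank library, with no overlap at either step. Within H2O2, library 3 was the lowest.

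Fitted to all 18 libraries with edgeR's quasi-likelihood test and adjusted over 13375 genes by the Benjamini-Hochberg method, as in every comparison, Fmod was 9.7-fold lower in Dox than in Blank. The log2 fold change was -3.28 ± 0.19 (SE; 95% interval -3.67 to -2.89; adjusted p = 4.58e-10), the ninth lowest of all tested genes. In H2O2 it was 2.78-fold lower than in Blank, with a log2 fold change of -1.48 ± 0.18 (interval -1.84 to -1.11; adjusted p = 0.000104). Both comparisons use the same Blank libraries, and Fmod was singled out with these declines already known, so they are given as a description. Set directly against each other, Dox was 3.49-fold below H2O2 (log2 -1.80 ± 0.18, interval -2.17 to -1.43, adjusted p = 3.65e-06).

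The isoliensinine arms gave the same measurement in libraries that neither Dox nor Blank includes. Fmod stood at 24.1, 24.4 and 28.5 FPKM in D_I, against 165, 175 and 204 FPKM in B_I. It stood at 62.5, 91.3 and 87.45 FPKM in H_I. Again neither the D_I nor the H_I libraries overlapped the B_I libraries. The log2 fold change was -2.99 ± 0.19 in D_I against B_I (interval -3.38 to -2.60, adjusted p = 4.01e-09), a 7.96-fold lower level and the 14th lowest value of all tested genes. In H_I against B_I it was -1.34 ± 0.18 (interval -1.71 to -0.98, adjusted p = 0.00066), a 2.54-fold lower level. D_I and H_I share the B_I libraries, and all arms share 1 estimate of spread. Fitted with D_I and B_I libraries alone, Fmod kept its call at -3.01 (adjusted p = 1.01e-06), and with H_I and B_I alone at -1.33 (adjusted p = 0.00849).

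**Figure D1:**
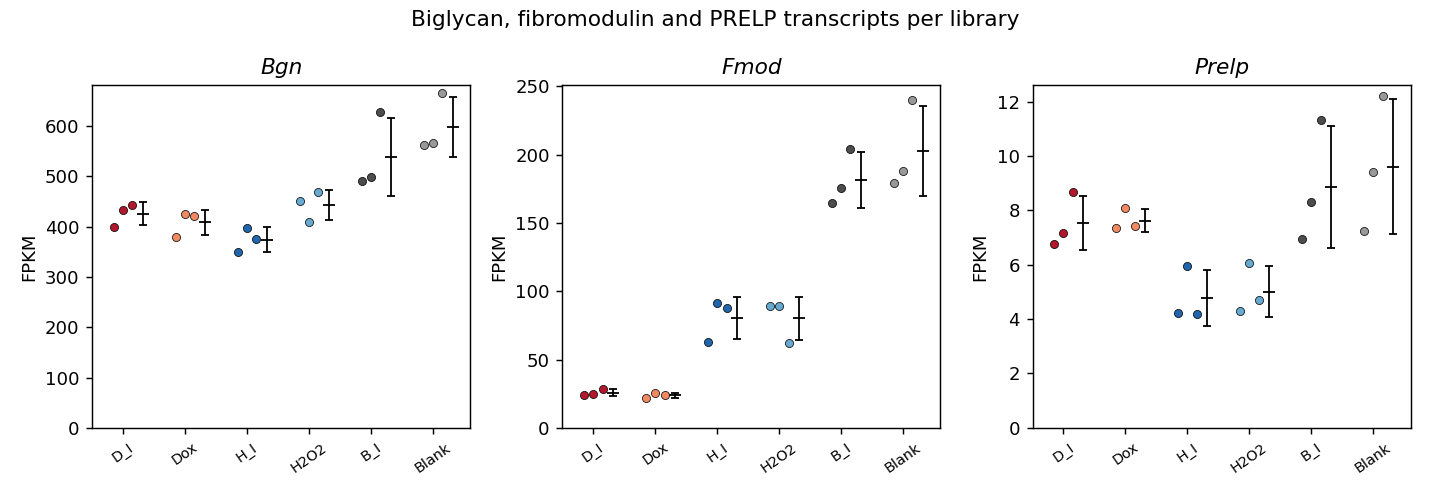
Levels in FPKM of Bgn, Fmod and Prelp (panels left to right, each with its own linear axis from 0) in every library of the 6 groups; points are libraries, and the bars beside them the group mean ± SD (n = 3). Fmod separates into 3 tiers with averages of 23.9 FPKM in Dox, 80.1 FPKM in H2O2 and 202.5 FPKM in Blank.

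Bgn was lower too, by far less. Biglycan, the relative of decorin with more chondroitin or dermatan sulfate chains, binds collagen and TGF-beta, and its soluble form engages Toll-like receptors. Bgn stood at 380.2, 426 and 421 FPKM in Dox, against 562, 566 and 666 FPKM in Blank. It stood at 452, 409 and 468.5 FPKM in H2O2. Neither inducer's libraries overlapped Blank, although as a ratio the highest H2O2 and the lowest Blank library were closer than in the case of Fmod. The log2 fold change was -0.74 ± 0.14 in Dox (interval -1.03 to -0.45, adjusted p = 0.000636), a 1.67-fold lower level. In H2O2 it was -0.56 ± 0.14 (interval -0.85 to -0.27), a 1.47-fold lower level whose adjusted p of 0.049 lay just inside the threshold of 0.05. Dox and H2O2 did not differ by the test (log2 -0.18, interval -0.47 to 0.11, adjusted p = 0.453).

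In the isoliensinine arms Bgn stood at 400.0, 434 and 444 FPKM in D_I and 349, 397 and 376 FPKM in H_I, against 490.0, 499.5 and 628 FPKM in B_I. No D_I or H_I library reached the lowest B_I library. Both differences passed the test, with a log2 fold change of -0.52 in D_I (interval -0.81 to -0.22, adjusted p = 0.0124) and -0.70 in H_I (interval -0.99 to -0.41, adjusted p = 0.0129). The highest B_I and Blank values belonged to B_I 3 and Blank 4, the libraries with the high smooth muscle marker sums, whose part in the result was not tested beyond leaving them out. Without Blank 4 the H2O2 difference was -0.38 and not called (adjusted p = 0.109), and the call was also lost without Blank 1, H2O2 1 or H2O2 2. Fitted with the H2O2 and Blank libraries alone it was -0.53 (adjusted p = 0.527). Without B_I 3 the D_I difference was -0.36 (adjusted p = 0.0628) and the H_I difference -0.51 (adjusted p = 0.0762), neither of them called. The D_I call was also lost without D_I 1, and the H_I call without H_I 1 or H_I 3. The H2O2 call was lost in 9 of 15 alternatives and the H_I call in 5 of 15, while the Dox call held in all 15.

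Prelp passed the test against Blank in H2O2 and not in Dox. PRELP has a basic amino-terminal region that binds heparin and heparan sulfate, and links basement membranes to the collagen beneath. Prelp stood at 4.28, 6.06 and 4.69 FPKM in H2O2, against 7.23, 9.41 and 12.2 FPKM in Blank. It stood at 7.34, 8.10 and 7.42 FPKM in Dox, overlapping Blank. The H2O2 libraries did not overlap Blank, and the log2 fold change was -1.07 ± 0.24 (interval -1.57 to -0.58, adjusted p = 0.023), a 2.11-fold lower level. In Dox it was -0.53 ± 0.23 (interval -1.01 to -0.05), which did not pass (adjusted p = 0.11). The direct comparison of Dox with H2O2 did not pass either, at 0.54 (interval 0.06 to 1.03, adjusted p = 0.137), but it was called with a replicate block (0.56, adjusted p = 0.0315) and without Blank 4 and B_I 3 (0.50, adjusted p = 0.0377).

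The isoliensinine arms showed the same layout for Prelp. It stood at 4.22, 5.96 and 4.18 FPKM in H_I and 6.77, 7.18 and 8.66 FPKM in D_I, against 6.95, 8.31 and 11.3 FPKM in B_I. The H_I libraries lay below the B_I libraries without overlap, while the D_I libraries overlapped them. The log2 fold change was -1.06 in H_I (interval -1.56 to -0.57, adjusted p = 0.0269) and -0.41 in D_I (interval -0.90 to 0.07, adjusted p = 0.238). Both oxidant calls were lost when any of several single libraries was left out. Without Blank 4 the H2O2 difference was -0.77 (adjusted p = 0.0745), and the call was also lost without H2O2 1 or H2O2 3. Without B_I 3 the H_I difference was -0.78 (adjusted p = 0.168), and that call was also lost without B_I 2, H_I 1 or H_I 3. Fitted with only the groups compared, neither was called (adjusted p = 0.326 in H2O2 and 0.0689 in H_I). The H2O2 call was lost in 5 of 15 alternatives and the H_I call in 6 of 15. Fmod, the neighbour of Prelp on chromosome 1, kept its call in all 15 alternatives of each of these comparisons.

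Counted together, 2 of the 7 family genes that passed the expression filter were called lower in Dox against Blank, where 21.7% of all tested genes were called in either direction and 11.4% lower. In H2O2 against Blank 3 of 7 were called lower, where 1.43% of all genes were called and 0.793% lower. In D_I against B_I 2 of 7 were called lower (18.8% of all genes called, 9.41% lower), and in H_I against B_I 3 of 7 (1.46% called, 0.464% higher and 0.994% lower). Dox against H2O2 called 1 of 7, Fmod, where 13.1% of genes were called, 6.73% higher and 6.33% lower. Fmod, singled out with its declines already known, was among the genes called in all 5 comparisons. Both counts of 3 became 1, Fmod alone, at a threshold of 0.01 and when only the compared groups were fitted. They also became 1 without any of several single libraries. No family gene was called higher in any of these 5 comparisons. Over all tested genes the median log2 fold change relative to Blank was 0.08 in Dox and -0.02 in H2O2, and relative to B_I it was 0.08 in D_I and 0.05 in H_I.

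**Figure D2:**
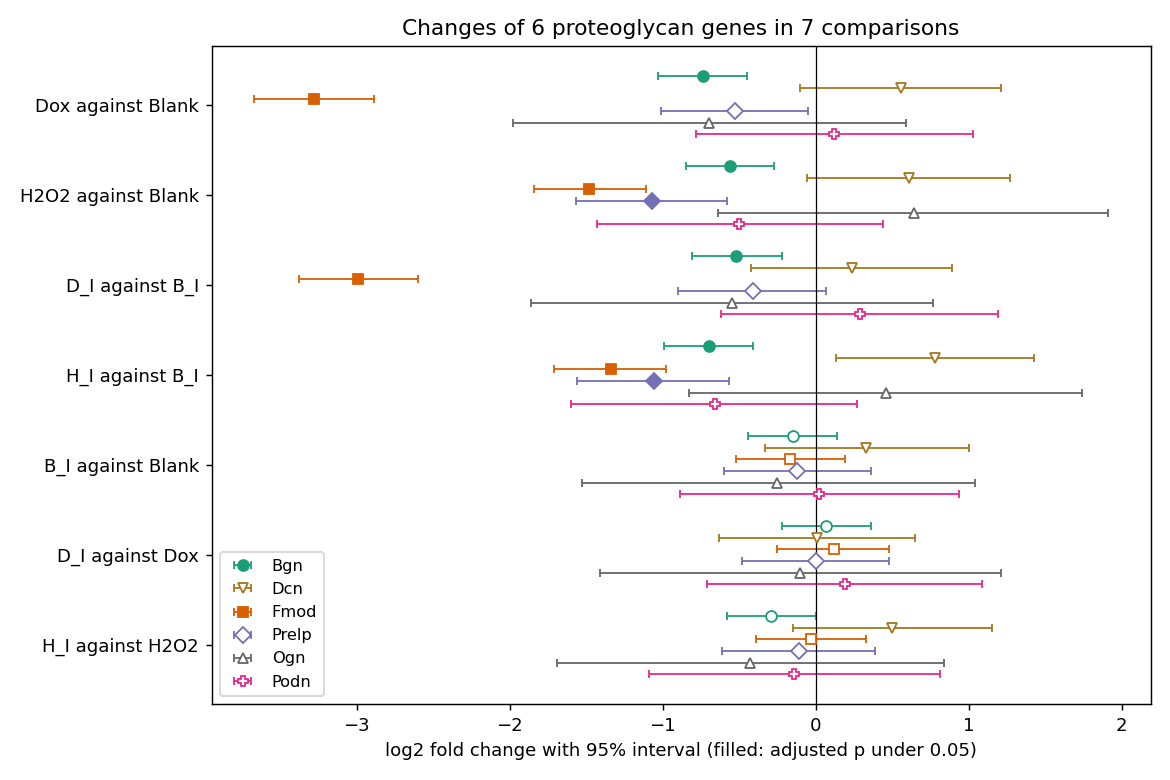
Log2 fold change with its 95% interval for 6 family genes in 7 comparisons (rows), leaving out the scarce Aspn and Lum; points are edgeR estimates, filled where the adjusted p was under 0.05, and the vertical line is 0. Fmod lies at -3.28 in Dox against Blank and -1.48 in H2O2 against Blank, and its intervals cross 0 in the 3 comparisons that add isoliensinine.

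Since Fmod fell more than Bgn, the make-up of the family transcripts changed. The summed level of the 8 genes was 412, 462 and 455 FPKM in Dox and 548.5, 506 and 539 FPKM in H2O2, against 752, 765 and 920.4 FPKM in Blank. Fmod made up 5.29% to 5.5% of this sum in Dox and 11.5% to 17.6% in H2O2, against 23.9% to 26.1% in Blank. In D_I it made up 5.23% to 5.89% and in H_I 14.9% to 18.6%, against 24.1% to 25.6% in B_I. For each unit of Fmod there were 16.8 to 17.4 units of Bgn in Dox and 4.59 to 7.54 in H2O2, against 2.77 to 3.14 in Blank, as a ratio of FPKM within each library. This ratio does not depend on how libraries are scaled. Blank 4, the library highest for both genes, gave the lowest Blank ratio, 2.77.

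**Figure D3:**
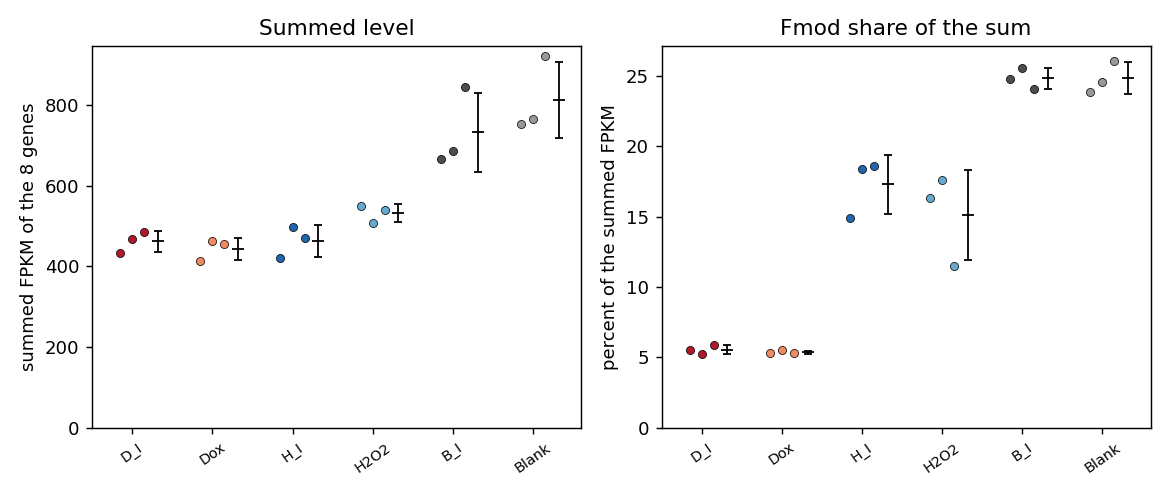
Left, the summed FPKM of the 8 genes per library, and right, the percentage of that sum from Fmod; points are libraries, and bars the group mean ± SD (n = 3). The Fmod share lies near 5% in Dox and D_I, between 11.5% and 18.6% in H2O2 and H_I, and between 23.9% and 26.1% in B_I and Blank.

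Adding isoliensinine moved none of the family genes past the threshold. Fmod averaged 25.7 ± 2.5 FPKM in D_I and 23.9 ± 1.9 FPKM in Dox (SD, n = 3 each), 80.4 ± 15.6 FPKM in H_I and 80.1 ± 15.6 FPKM in H2O2, and 181 ± 20.3 FPKM in B_I and 202.5 ± 32.9 FPKM in Blank. In each pair the libraries overlapped. The fitted Fmod differences were 0.12 for D_I relative to Dox (interval -0.25 to 0.48), -0.03 for H_I relative to H2O2 (interval -0.39 to 0.33) and -0.17 for B_I relative to Blank (interval -0.52 to 0.19). Each of these intervals lies nearer to 0 than the interval of any Fmod difference between inducer and control. For Bgn the differences were 0.07 (interval -0.22 to 0.36), -0.29 (interval -0.58 to -0.00) and -0.15 (interval -0.44 to 0.14) in the same order. The H_I difference of Bgn had an unadjusted p of 0.048 and an adjusted p of 0.723. Prelp gave -0.00 (interval -0.48 to 0.48), -0.11 (interval -0.61 to 0.39) and -0.12 (interval -0.60 to 0.36).

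Across all genes edgeR called 0 of 13375, 0% of those tested, in each of the 3 isoliensinine comparisons and in both tests of whether the isoliensinine difference itself varied with the inducer. At an unadjusted p under 0.05 there were 556 genes for D_I and Dox, 915 for H_I and H2O2, and 640 for B_I and Blank, of which 0, 1 and 0 were family genes. DESeq2 called 21, 81 and 1 genes there, with 0 family genes among them, though it gave 5 of the 7 family genes no adjusted p in D_I against Dox. Fitted on the D_I and Dox libraries alone, edgeR called 263 of 12589 genes (109 higher, 154 lower), with no family gene among them. For the variation with the inducer, the unadjusted counts were 522 genes for doxorubicin and 813 for hydrogen peroxide, with 0 family genes in each, and DESeq2 called 3 and 2 genes, again with 0 family genes.

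The remaining class I genes were scarce. Decorin, which binds collagen fibrils and TGF-beta through a core with a single chain, had 41 to 145 counts per library. Dcn stood at 1.07, 0.799 and 0.998 FPKM in Dox and 1.06, 0.691 and 1.09 FPKM in H2O2, against 0.725, 0.424 and 0.566 FPKM in Blank. It stood at 0.905, 0.785 and 1.16 FPKM in D_I and 1.785, 1.19 and 1.20 FPKM in H_I, against 1.09, 0.627 and 0.477 FPKM in B_I. The Dox libraries lay above Blank and the H_I libraries above B_I without overlap, while H2O2 overlapped Blank and D_I overlapped B_I.

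None of the Dcn differences passed. The log2 fold change was 0.56 ± 0.32 in Dox (interval -0.10 to 1.21, adjusted p = 0.237) and 0.61 ± 0.32 in H2O2 (interval -0.06 to 1.27, adjusted p = 0.425). It was 0.78 ± 0.31 in H_I against B_I (interval 0.13 to 1.43, adjusted p = 0.204) and 0.24 in D_I against B_I (adjusted p = 0.669). Estimates for Dcn were above 0 in all 4 of these comparisons, in which those for Fmod and Bgn were below 0. The highest Dcn level was in H_I 1, the library with the highest colon and liver sum, and without it the H_I estimate was 0.58 (adjusted p = 0.52). In each of the 6 groups the library with the highest Dcn level also had the highest colon and liver sum of its group. These were D_I 3, Dox 1, H_I 1, H2O2 3, B_I 1 and Blank 1. The part of such transcripts in the Dcn levels was not tested.

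Asporin, a class I core that carries an aspartate-rich stretch and no glycosaminoglycan chain, was near the limit of detection. Aspn had 18, 5 and 5 counts in Dox and 16, 0 and 0 counts in H2O2, against 15, 0 and 2 counts in Blank. It had 6, 3 and 13 counts in D_I and 17, 5 and 4 counts in H_I, against 11, 15 and 0 counts in B_I. The groups overlapped in every comparison with a control, and no fold change is given. Lumican, the class II keratan sulfate proteoglycan needed for a clear cornea, did not pass the filter, with 108 counts in all. Lum had 12, 2 and 5 counts in Dox, 8, 0 and 0 counts in H2O2 and 10, 2 and 3 counts in Blank. It had 6, 2 and 17 counts in D_I, 30, 1 and 8 counts in H_I and 2, 0 and 0 counts in B_I. In FPKM the lowest D_I library (0.0506) lay just above the highest B_I library (0.0467), but both held 2 counts. The other groups overlapped their controls. The 30 counts came from H_I 1, and a count of 0 allows up to 3 counts, by counting error alone. In every group but H2O2, the library with the most Lum counts had the highest colon and liver sum of its group.

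Osteoglycin, a class III member found in bone and vessel wall, varied widely among replicates. Ogn stood at 0.397, 1.22 and 1.86 FPKM in H2O2 and 0.485, 0.426 and 0.549 FPKM in Dox, against 0.943, 0.730 and 0.446 FPKM in Blank. It stood at 0.534, 0.217 and 0.599 FPKM in D_I and 1.12, 0.668 and 0.930 FPKM in H_I, against 0.870, 0.8315 and 0.108 FPKM in B_I. The H2O2 libraries alone spanned most of the range. No Ogn difference passed, with log2 estimates of 0.64 in H2O2 (interval -0.64 to 1.91, adjusted p = 0.72) and -0.70 in Dox (interval -1.98 to 0.59, adjusted p = 0.489). Dox was estimated below H2O2 by the widest margin, -1.33 (interval -2.62 to -0.04), and that did not pass either (adjusted p = 0.173).

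Podocan, a class V member whose loss in mice increases smooth muscle growth after arterial injury, overlapped between the groups of every comparison. Podn averaged 0.855 ± 0.297 FPKM in Dox and 0.538 ± 0.216 FPKM in H2O2, against 0.696 ± 0.248 FPKM in Blank (SD, n = 3 each). It averaged 0.971 ± 0.253 FPKM in D_I and 0.503 ± 0.172 FPKM in H_I, against 0.7105 ± 0.358 FPKM in B_I. None passed, with log2 estimates of 0.12 in Dox (interval -0.78 to 1.03, adjusted p = 0.886) and -0.50 in H2O2 (interval -1.43 to 0.44, adjusted p = 0.702). The estimates against B_I were 0.29 in D_I (adjusted p = 0.714) and -0.66 in H_I (adjusted p = 0.462).

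**Figure D4:**
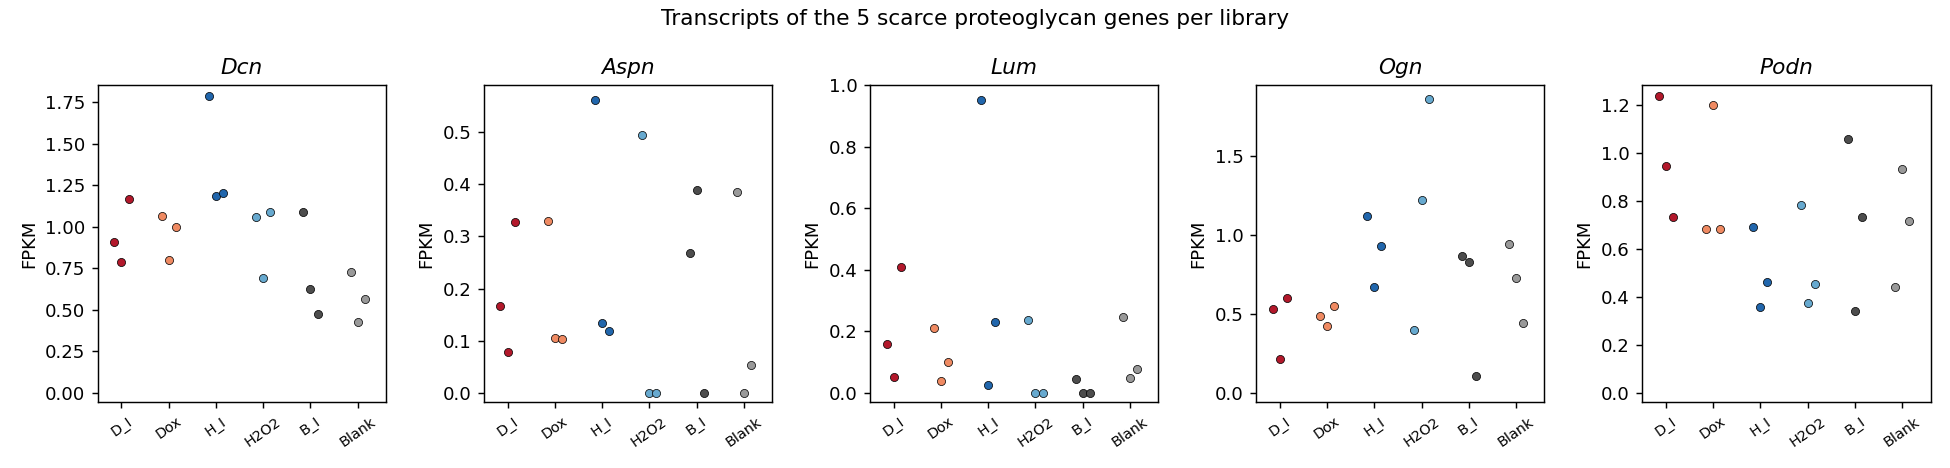
Levels in FPKM of Dcn, Aspn, Lum, Ogn and Podn (panels left to right, each with its own linear axis) in every library of the 6 groups; points are libraries, with no means drawn because Aspn and Lum have libraries at 0. H_I 1 is the highest library for Dcn, Aspn and Lum, and Dcn separates Dox from Blank and H_I from B_I. For Lum the lowest D_I and the highest B_I library (0.0506 and 0.0467 FPKM) both held 2 counts.

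The share of all tested genes called, given with the family counts (21.7% in Dox and 1.43% in H2O2 against Blank, 18.8% in D_I and 1.46% in H_I against B_I), is the background for each gene list here and below. Other family genes were mostly under the filter. Of 10 further family members, 4 passed the filter, and 1 rose and 1 fell in Dox against Blank (median log2 -0.12). Tsku, the class IV member tsukushi, averaged 5.99 ± 0.51 FPKM in Dox and 3.11 ± 0.84 FPKM in Blank (log2 0.78, adjusted p = 0.00423). Podnl1, the podocan-like gene, averaged 5.42 ± 0.45 FPKM in Dox and 7.05 ± 1.87 FPKM in Blank (log2 -0.58, adjusted p = 0.0338), and without Blank 4, Dox 1 or Dox 3 its call was lost. Podnl1 also fell in D_I against B_I (log2 -0.71, adjusted p = 0.0114), a call lost without B_I 3 or D_I 2. Tsku was higher in Dox than in H2O2 (log2 0.64, adjusted p = 0.0239), a call lost without H2O2 2, H2O2 3, Dox 1 or Dox 2. None of the 4 changed in H2O2 against Blank or in H_I against B_I.

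The enzymes that build and sulfate the glycosaminoglycan chains changed in both directions. Relative to Blank, 2 of 30 tested rose and 3 fell in Dox (median 0.07), and 0 were called in H2O2 (median -0.11). Relative to B_I, 6 rose and 2 fell in D_I (median 0.19), and 0 were called in H_I (median 0.06). In Dox against Blank 0 were called higher and 2 lower without Dox 3, and likewise at a threshold of 0.01. The 8 calls in D_I became 4 without D_I 2 and 5 without B_I 2 or D_I 1. Slc35b2, the carrier of the sulfate donor into the Golgi, averaged 78.7 FPKM in Dox and 152 FPKM in Blank (log2 -1.14, adjusted p = 8.54e-05). Chst1, a sulfotransferase for keratan sulfate, the chain of Fmod and Lum, averaged 14.0 FPKM in Dox and 22.2 FPKM in Blank (log2 -0.83, adjusted p = 0.000122). Ugdh, which makes the glucuronic acid donor, averaged 8.66 FPKM in Dox and 4.32 FPKM in Blank (log2 0.84, adjusted p = 0.0138). Chst11, a chondroitin sulfotransferase, rose in Dox against Blank (log2 0.66, adjusted p = 0.0402) and in D_I against B_I (log2 0.89, adjusted p = 0.00809). Slc35b2 fell again in D_I against B_I (log2 -0.90, adjusted p = 0.000971), where the chain enzymes Chst15 and B4galt7 rose by 0.98 and 0.76 on the log2 scale.

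Among the binding partners and receptors, collagens and elastin had the lowest log2 fold changes of the genes called. Relative to Blank, 4 of 29 tested rose and 11 fell in Dox (median -0.17), and 0 rose and 5 fell in H2O2 (median -0.40). Relative to B_I, 4 rose and 9 fell in D_I (median -0.11), and 0 rose and 3 fell in H_I (median -0.00). In Dox against Blank the largest were the matrix ligands elastin and collagen, with Eln at -3.56, Col3a1 at -3.21, Col1a2 at -1.89 and Col6a2 at -1.58 on the log2 scale. Col1a2, a chain of the type I collagen that Fmod binds, averaged 177 FPKM in Dox and 331 FPKM in H2O2, against 575 FPKM in Blank. In H2O2 against Blank Eln (-1.56), Col3a1 (-1.11), Col1a2 (-0.92) and Col1a1 (-0.82) fell, as did Egfr (-0.57). Those 5 calls became 2 without H2O2 1, 3 without Blank 4 or H2O2 3, and 0 when only those groups were fitted. In H_I against B_I the 3 that fell were Col6a2 (-0.82), Col1a2 (-0.75) and Col1a1 (-0.67), and without H_I 1 the count was 0. In D_I against B_I Eln (-3.25), Col3a1 (-2.94), Col1a2 (-1.66) and Col6a2 (-1.34) fell again. Among receptors and growth factors in Dox against Blank, the purinergic receptor P2rx7 was called higher (1.34, adjusted p = 0.0378), at only 0.68 FPKM in Dox and 0.241 FPKM in Blank. P2rx4, another purinergic receptor, was called lower (-0.88, adjusted p = 0.000408), at 3.48 FPKM in Dox and 5.72 FPKM in Blank. Tgfb1 (-0.77) and Egfr (-0.66) were called lower and Fn1, the gene of fibronectin, was called higher (0.86). These genes were chosen after their values were seen.

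Of 12 tested genes for proteases that cut these proteins or act with them, 1 rose and 3 fell in Dox against Blank. Pcolce, which encodes an enhancer of procollagen processing and no protease itself, averaged 160 FPKM in Dox and 306 FPKM in Blank (log2 -1.12, adjusted p = 4.47e-07). The membrane protease gene Mmp14 (-0.62) and Htra1 (-0.40) fell, and Mmp2, a gelatinase gene, rose (0.40). Of 21 tested genes of other proteoglycan cores, 1 rose and 2 fell in Dox against Blank. Sdc4, a cell-surface heparan sulfate proteoglycan, averaged 41.7 FPKM in Dox and 18.4 FPKM in Blank (adjusted p = 1.12e-05), opposite in direction to Fmod. Gpc6, a glypican, fell by 0.89 and Cspg4 by 0.60 on the log2 scale. In H2O2 against Blank 0 genes of either list were called. In D_I against B_I the protease list had 2 higher and 2 lower, with Adamts4 at 1.72, Pcolce at -0.99, Mmp2 at 0.58 and Mmp14 at -0.43, and the core list had 3 higher and 1 lower, with Sdc4 at 1.07, Agrn at 0.72, Hspg2 at 0.67 and Cspg4 at -0.41. In H_I against B_I the calls were Mmp14 at -0.41, Cspg4 at -0.56 and Sdc4 at 0.55, all 3 of which were lost without H_I 1. The Mmp14 call was also lost without any other single library of these groups and under both other scalings, and the other calls without B_I 2 or H_I 3.

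Over the 18 libraries the transcript whose profile was closest to Fmod was Sparc, a collagen-binding matrix protein, with a Pearson correlation of 0.998 on the log2 CPM scale. Col1a2 (0.993), Eln (0.986), Adamts2 (0.984), which encodes a procollagen peptidase, and Pdgfrl (0.984) followed. Here log2 CPM used library totals scaled as in the fits, and a prior count of 2. The 18 points share their 6 groups, so these values describe group levels more than variation among libraries, and they carry no test. Fmod differed from them in size. Against Blank, Sparc changed by -1.57 in Dox and -0.75 in H2O2, Adamts2 by -1.53 and -0.51, and Pdgfrl by -1.70 and -0.74, where Fmod changed by -3.28 and -1.48. Eln changed by -3.56 in Dox and -1.56 in H2O2, nearest to Fmod in size, from a much lower mean level of 3.08 FPKM.

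**Figure D5:**
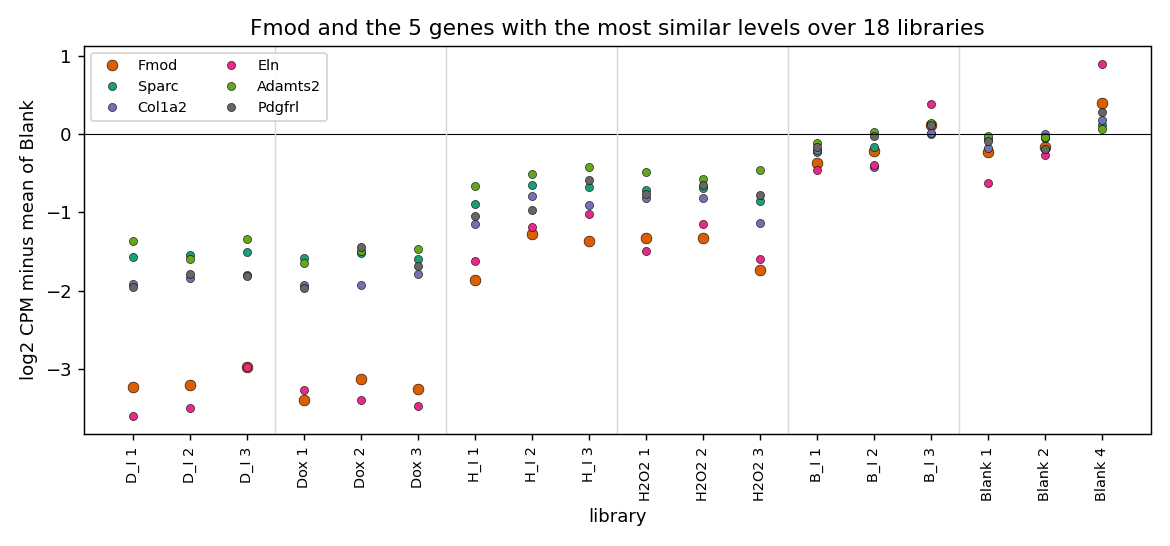
Log2 CPM of Fmod and its 5 closest transcripts in each library, as the difference from that gene's mean over the Blank libraries. Library totals were scaled as in the fits, with a prior count of 2. Points are single libraries, ordered by group. All 6 genes lie lowest in Dox and D_I, and Fmod and Eln reach further below 0 than the other 4.

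The closest transcripts to Bgn were others than those of Fmod: Kazald1 (0.962), Cd276 (0.961), Cic (0.950), Cd82 (0.945) and Col6a1 (0.944). Among those closest to Prelp were Bola3 (0.912), Mta1 (0.90), Pigq (0.898) and Cand2 (0.898). For Dcn they were Cyp2f2 (0.893), Prss30 (0.862), Klf5 (0.860), AI182371 (0.851) and Ifi27l2b (0.843), which themselves averaged between 0.116 and 1.01 FPKM. For Ogn the closest was Pgm5 (0.873), for Podn Zfp791 (0.835) and for Aspn Gmfg (0.783), values reached among scarce transcripts and read no further.

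Summed fibroblast markers were 397 to 427 CPM in Dox and 461 to 503 CPM in H2O2, against 564 to 628 CPM in Blank, the same order of group medians as Fmod. They were 431 to 482 CPM in D_I and 450 to 513 CPM in H_I, against 507 to 600 CPM in B_I. The sum was carried by few genes: of 11 tested markers 3 were called lower and 1 higher in Dox against Blank (median -0.02), with Serpinf1 at -2.03 and Pdgfrb at -0.88 but Ly6a at 1.61 on the log2 scale. Chondrocyte markers, another cell type rich in Fmod and Prelp, summed to 15.9 to 27.8 CPM in Dox and 32.1 to 38.1 CPM in H2O2, against 36.4 to 55.7 CPM in Blank. The chondrocyte sum was carried mainly by Col11a1 and Sox9, which averaged 20.2 and 9.34 CPM, and 5 of the 8 markers averaged under 1 CPM. Of 4 tested, 2 were called lower in Dox against Blank and 1 in H2O2 against Blank. Col2a1 was estimated higher in H2O2 than in Blank (log2 1.11, adjusted p = 0.205). The part of fibroblast and chondrocyte markers in the proteoglycan differences was not tested. Summed smooth muscle markers, mostly Acta2, were 1155 to 1361 CPM in D_I and 2063 to 2505 CPM in Dox, and Acta2 did not pass the test between them (log2 -0.98, adjusted p = 0.999). In Dox against Blank 3 of 8 tested smooth muscle markers were called higher and 0 lower, with Cnn1 at 1.42, Mylk at 0.99 and Cald1 at 0.98 on the log2 scale. Endothelial markers summed to 15.8 to 30.5 CPM over all libraries. Macrophage markers summed to 29.3 to 49.3 CPM in Dox and 11.6 to 31.2 CPM in H2O2, against 10.3 to 36.4 CPM in Blank. They summed to 34.9 to 53.3 CPM in D_I and 25.0 to 54.5 CPM in H_I, against 11.9 to 42.2 CPM in B_I. Of 7 tested macrophage markers, 1 was called higher in Dox against Blank, 1 in D_I against B_I and 1 in H_I against B_I. In H2O2 against Blank 0 were called. No listed marker gene was at 0 in every library.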

How the data were processed

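Counts and FPKM per gene were deposited by the authors in 1 table for 18 libraries. Per the labels' protocols, poly-A RNA was converted with random primers, and per the submitters' processing notes fastp 0.22.0, HISAT2 2.1.0 and HTSeq 0.9.1 were used. The sources used here name neither a genome build nor a strand setting. The authors' FPKM equal count per length and column total for 100% of values above 0, within a relative tolerance of 1e-06. They are therefore not scaled between libraries as the fits are (TMM factors 0.846 to 1.07), and fold changes from FPKM and from the fit differ somewhat.

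The deposited counts were tested with edgeR 4.0.16 (R 4.3.3): TMM scaling, the filterByExpr filter, robust quasi-likelihood fits with a mean per group over all 18 libraries, and Benjamini-Hochberg adjustment over 13375 genes, called under 0.05. Of the 8 family genes, 7 passed the filter. Standard errors come from the F statistic. The code was tested on simulated data. Rows with no gene symbol (51, with 0.0187% of counts) stayed in under their gene identifiers. Replicates of a group differed beyond sampling noise in every pair (lowest chi-square per degree of freedom 5.69).

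From each further gene list, up to 4 called genes per comparison were named by size of change, from a mean of 1 FPKM in the higher group, and the 5 most correlated transcripts per family gene, of which only the first is given for Ogn, Podn and Aspn, and 1 for Prelp is not reported here. The family genes and all lists were chosen with earlier results of these data known. Alternatives were DESeq2 1.42.0, 2 other scalings, 2 other filters, a fit of the compared groups alone, a replicate block, a threshold of 0.01, and libraries left out.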

Additional observations from a re-analysis of the deposited data

How the results depend on the processing

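Of 700 alternative values for single family genes, 633 kept their direction and side of the threshold, 27 lost a call, 3 gained one and 37 changed sign. Fmod was called in every alternative of the 5 comparisons between inducer and control or between inducers. The cause of the changes below was not tested. Counts here are of called genes.

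Counts of family genes called moved as follows. In H2O2 against Blank 3 became 1 at a threshold of 0.01, 1 when only those groups were fitted, and 1 without H_I 1 and H2O2 3, an alternative chosen after seeing the data, and leaving out single libraries gave 1 to 3 (1 without Blank 4 or H2O2 1). In H_I against B_I 3 became 1 under the same 3 settings, and leaving out single libraries gave 1 to 3 (1 without B_I 3, H_I 1 or H_I 3). In D_I against B_I 2 became 1 at 0.01, and leaving out single libraries gave 1 to 2 (1 without B_I 3 or D_I 1). In Dox against H2O2 1 became 2 with the replicate block and 2 without Blank 4 and B_I 3, where Prelp was called higher. In Dox against Blank Prelp joined Fmod and Bgn without Blank 1 (-0.72, adjusted p = 0.0375).

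Signs changed in differences that were not called. Without H_I 1 and H2O2 3, Dcn in Dox against H2O2 was 0.04. With the replicate block, B_I against Blank gave Fmod 0.02 and Prelp 0.12. Without Blank 4 and B_I 3, Ogn was 0.05 in B_I against Blank and -0.02 in H_I against B_I. In D_I against Dox, Dcn was -0.01 when only those groups were fitted, and Prelp 0.00 with DESeq2 size factors. Leaving out single libraries gave these log2 ranges. In B_I against Blank they were -0.30 to 0.06 for Fmod, -0.32 to 0.01 for Bgn, -0.39 to 0.17 for Prelp, -0.02 to 0.54 for Dcn, -0.57 to 0.25 for Ogn and -0.31 to 0.36 for Podn. In D_I against Dox they were -0.12 to 0.07 for Prelp, -0.17 to 0.13 for Dcn, -0.37 to 0.23 for Ogn and -0.02 to 0.53 for Podn. In H_I against H2O2 they were -0.16 to 0.12 for Fmod, -0.31 to 0.03 for Prelp, -0.84 to 0.14 for Ogn and -0.43 to 0.21 for Podn. They were -0.22 to 0.34 for Podn in Dox against Blank, -0.24 to 0.10 for Dcn in Dox against H2O2, -0.07 to 0.63 for Podn in D_I against B_I and -0.02 to 0.79 for Ogn in H_I against B_I.

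Replicate numbers did not pair the libraries throughout: correlations of same-numbered deviations ran from -0.19 to 0.28, and 9 of 40 exceeded 0.1. The replicate 1 libraries of B_I, Blank, H_I and Dox correlated with each other at 0.14 to 0.28. Pairs with replicate 1 of H2O2 or D_I gave -0.11 to 0.09. B_I 1, Blank 1, H_I 1 and Dox 1 also had the highest colon and liver sum of their groups (310, 244, 988 and 298 CPM). What they share was not tested. The block leaves out Blank 4, which has no partner.

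Over all genes, calls in Dox against Blank (2896) became 1722 at 0.01 and 1876 without Dox 3. In H2O2 against Blank 191 became 428 with DESeq2, 5 when only those groups were fitted, 526 without Blank 4 and B_I 3, 55 at 0.01, 94 without Blank 1 and 109 without H2O2 1. In Dox against H2O2 1746 became 808 at 0.01, 2837 without Blank 4 and B_I 3, 1076 without H_I 1 and H2O2 3, 845 without Dox 3, 983 without Dox 1 and 1080 without H2O2 3. In D_I against B_I 2518 became 1382 at 0.01, 1615 without D_I 1 and 1658 without D_I 2. In H_I against B_I 195 became 54 at 0.01, 530 with DESeq2, 616 with the block, 35 when only those groups were fitted, 80 without H_I 1 and H2O2 3, and 37 to 424 without single libraries. In D_I against Dox 0 became 263 when only those groups were fitted, with no family gene among them. DESeq2 size factors moved the split of calls to 674 higher and 1036 lower in Dox against H2O2 (900 and 846 with TMM) and to 81 higher and 67 lower in H2O2 against Blank (85 and 106). Binding partners called lower in H2O2 against Blank (5) became 0 when only those groups were fitted, 2 at 0.01 and 8 with DESeq2, and chain enzymes called in Dox against Blank (5) became 2 at 0.01 or without Dox 3 and 9 with DESeq2.

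At 145 counts or fewer per library, depth limits Dcn, Ogn, Podn and Aspn, and Lum was not tested.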
